A study of Homo sapiens with 20 samples.

Results

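The neuronal cytoskeleton of IMR-32 cells was followed through 37 genes that were listed by name: 12 tubulins, 11 microtubule-associated proteins, 7 genes of the stathmin and doublecortin families with GAP43, and 7 intermediate filament genes. Each was matched by its Ensembl identifier to 1 row of a table of 58787 genes. Of the 37, 34 had enough counts to enter the test, among 13729 tested genes in all. TUBA1C, TUBB3 and TUBB4A did not.

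IMR-32 is an established line of human neuroblastoma cells with extra copies of the MYCN oncogene, and the labels give 1 line, 1 genotype (WT) and batch 1 for all 20 libraries. Adherent cells were exposed for 24 h in 5 groups of 4 libraries: the combination of prexasertib with Dyngo-4a (its doses are not stated in the labels), prexasertib at 2 nM, Dyngo-4a at 2.26 µM (the high dose), Dyngo-4a at 1 µM (the low dose), and DMSO, the solvent. The titles of the high-dose libraries carry the tag IC50, and the other titles do not. Prexasertib blocks the checkpoint kinase CHK1, and Dyngo-4a was developed against dynamins, the GTPases that pinch off endocytic vesicles. The title of the series names CHK1 and MUS81, a nuclease of stalled forks, as joint targets. Counts came from a 3′ mRNA assay, in which each transcript is read near its polyadenylated end. The labels do not state whether a group's 4 libraries were grown as separate cultures, and the p-values therefore reflect the spread among these libraries alone.

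Microtubules are hollow polymers of alpha and beta tubulin dimers that are nucleated on gamma tubulin complexes. Microtubule-associated proteins bundle and stabilise them in axons and dendrites, end-binding proteins ride on their growing plus ends, and stathmins bind free tubulin dimers. Neurofilaments, peripherin and alpha-internexin form the intermediate filaments of mature nerve cells, whereas vimentin and nestin mark neural precursors. Human cells carry several copies of the alpha and beta tubulin genes with nearly the same coding sequence.

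Library totals ran from 3960885 to 6537843 counts, and a count of 0 allows up to 3 counts in a library, a limit that covers counting error only. Levels are in CPM, counts scaled to a shared library size. The label of the cells, neuroblast, was set against marker genes: among the adrenergic neuroblast markers GATA3 measured 957 to 1295 CPM, HAND2 488 to 867 CPM and ISL1 114 to 204 CPM across the libraries. TH, the defining enzyme of catecholamine synthesis, held 117 counts over all 20 libraries. The tissue label, brain, was not borne out by 7 markers of glutamatergic and GABAergic brain neurons, which summed to at most 4.77 CPM, with SLC17A6, GAD2 and TBR1 at 0 counts. Of 6 Schwann and glial markers SOX10 was at 0 counts and the sum did not pass 9.99 CPM, and 8 markers of the mesenchymal neuroblastoma state summed to 272 to 374 CPM, most of it from TWIST1.

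The sequences at the start of the tubulin reading frames are shown because they set out how alike the copies are. In mammalian cells the mRNAs of alpha and beta tubulin are known to be destroyed when free tubulin dimers are plentiful, a control that reads the first residues of the nascent chain; that control was not measured here. Below are the first 30 coding bases of the 9 tested tubulins in GENCODE 29, 5′ to 3′, with the first 12 bases, the first 4 codons, in capitals.
TUBA1A: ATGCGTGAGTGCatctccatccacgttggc
TUBA1B: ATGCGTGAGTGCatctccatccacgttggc
TUBA4A: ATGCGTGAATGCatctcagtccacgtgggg
TUBB: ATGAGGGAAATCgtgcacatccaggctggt
TUBB2A: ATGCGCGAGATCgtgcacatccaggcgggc
TUBB2B: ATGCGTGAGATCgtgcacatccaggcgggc
TUBB4B: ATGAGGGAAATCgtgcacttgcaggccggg
TUBB6: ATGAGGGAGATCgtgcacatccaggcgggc
TUBG1: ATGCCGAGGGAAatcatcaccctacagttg
TUBA1A and TUBA1B carry the same 30 bases, and their whole coding sequences were 97.2% identical. TUBB2A and TUBB2B were 98.1% identical over 1338 bases, while TUBA1A and TUBB were 52.5% identical.

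Because reads of the assay lie near transcript ends, the last 300 bases of each annotated transcript were cut into 50-base windows and searched in the transcripts of all other genes. TUBB2B shared 0% of its windows, TUBB2A 21.1%, TUBB4B 7.17% and TUBA1B 13.9%. The shared windows of TUBB2A were found in TUBB2B among other genes, and those of TUBA1B in TUBA1A and TUBAP2. TUBB2A and TUBB2B, and TUBA1A and TUBA1B, are therefore not wholly separate measurements. The 4 annotated ends of TUBA1A shared 14.7% to 57.8%, so some of its reads may have been dropped or assigned elsewhere. TUBB, TUBB6, TUBA4A and TUBG1 shared 0%, as did the members outside the tubulins. The 500 last exonic bases of TUBA4A all lie under STK16 on the opposite strand, and 271 of those of TUBB6 lie under AFG3L2. Those of TUBA1B all lie under AC011603.2, also on the opposite strand. Per library AC011603.2 held 0 to 6 counts and TUBA1B 10047 to 24633. The labels do not say whether the authors' counting used strand, so TUBA4A and TUBB6 are uncertain in that respect.

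In cells treated with the high dose of Dyngo-4a, 8 of 9 tested tubulins fell and 1, TUBB2B, rose. The falls included the alpha tubulins TUBA1A and TUBA1B, and the beta tubulins TUBB, TUBB4B and TUBB6. In the plot of tubulin levels by library, the high-dose mean is the lowest of the 5 groups in 8 of 9 panels and the highest in that of TUBB2B. Over all members 6 rose and 15 fell against DMSO, 21 of 34, where 25.2% of the 13729 tested genes were called in either direction, 12.5% higher and 12.7% lower. A gene was called at a Benjamini-Hochberg adjusted p under 0.05 in edgeR's quasi-likelihood test. The median log2 fold change of the tubulins was -0.57, against 0.00 for all tested genes. In bulk RNA fewer cells of a type and less RNA per cell cannot be told apart.

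The nuclear RNA MALAT1 took 2.80% to 3.15% of the counts in the high-dose libraries, against 0.941% to 1.76% in DMSO, and 1.74% to 2.92% in the combination. Its part in the changes below was not tested.

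**Figure D1:**
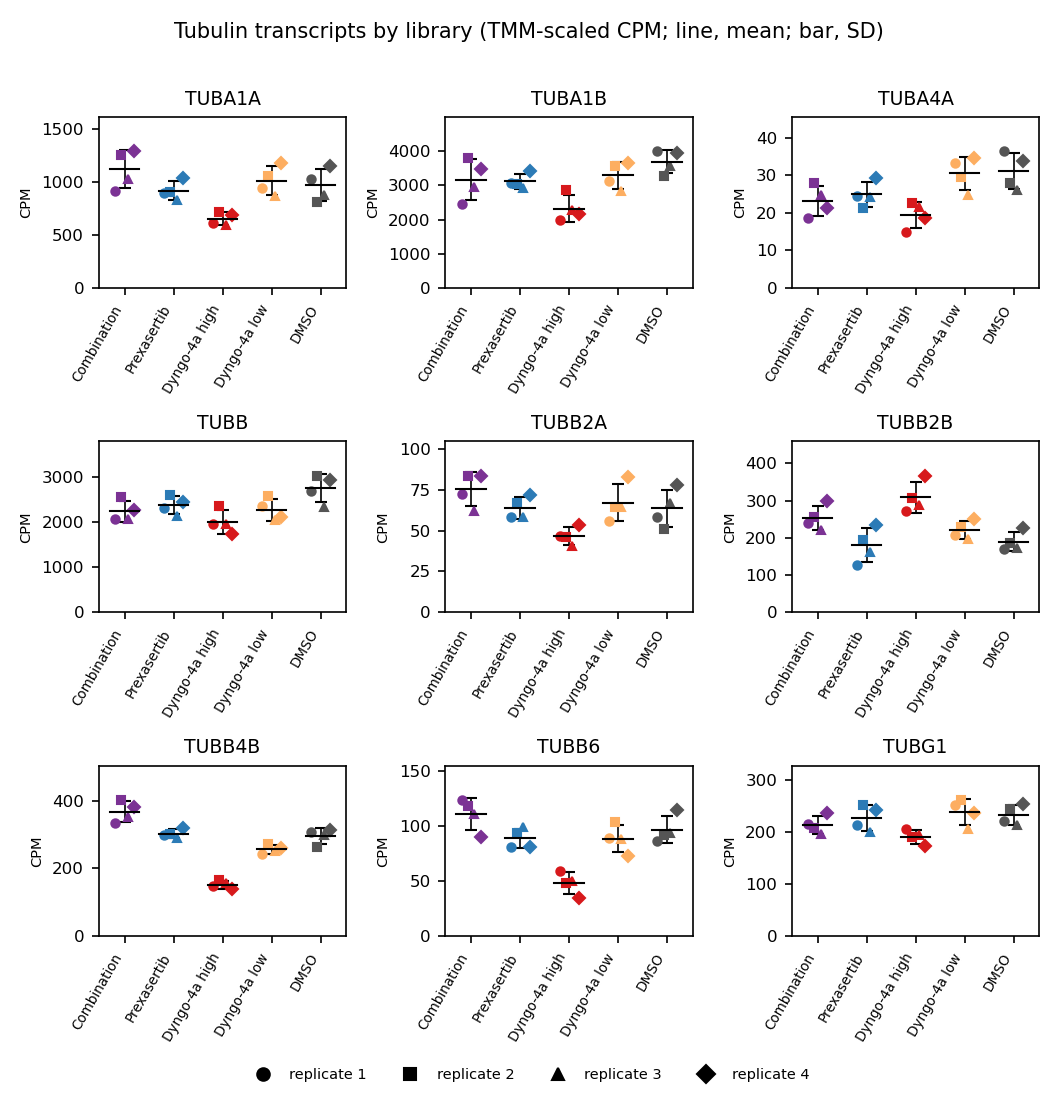
TMM-scaled CPM of the 9 tested tubulin genes on a linear axis from 0, with 1 point per library in the combination, prexasertib, Dyngo-4a high, Dyngo-4a low and DMSO groups; marker shapes give the replicate number, lines the mean and bars the SD (n = 4). TUBB4B lies at 138 to 166 CPM with the high dose, against 262 to 315 CPM in DMSO, while TUBB2B lies at 271 to 367 CPM with the high dose, against 171 to 227 CPM in DMSO.

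TUBB4B, a beta tubulin found in many tissues (chromosome 9, 137241213 to 137243707 in GRCh38), measured 148, 166, 157 and 138 CPM in the high-dose libraries, against 307, 262, 298 and 315 CPM in DMSO. Every high-dose library lay below every DMSO library, and its log2 fold change was -0.95 ± 0.09 SE (adjusted p = 2.05e-10). TUBB6, another widely expressed beta tubulin (chromosome 18, 12307669 to 12344320), measured 59.0, 48.1, 50.6 and 34.7 CPM with the high dose, against 86.6, 92.5, 93.7 and 115 CPM in DMSO. The groups did not overlap, with a log2 fold change of -1.01 ± 0.13 (adjusted p = 3.86e-07). TUBB, a beta tubulin made in most cell types (chromosome 6, 30720201 to 30725426), measured 1971, 2358, 1949 and 1739 CPM with the high dose, against 2688, 3037, 2341 and 2940 CPM in DMSO. High-dose replicate 2 stood just above DMSO replicate 3, so the groups overlapped, and the log2 fold change of TUBB was -0.46 ± 0.10 (adjusted p = 0.00096).

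The alpha tubulins fell together. TUBA1B (chromosome 12, 49127782 to 49131397) measured 1981, 2868, 2272 and 2168 CPM with the high dose, against 3990, 3276, 3574 and 3944 CPM in DMSO. Its neighbour TUBA1A, the alpha tubulin of growing neurons (chromosome 12, 49184796 to 49189324), measured 613, 717, 592 and 690 CPM with the high dose, against 1032, 816, 880 and 1154 CPM in DMSO. Neither gene had an overlap between the groups. The log2 fold changes were -0.67 ± 0.12 SE for TUBA1B (adjusted p = 4.35e-05) and -0.57 ± 0.11 for TUBA1A (adjusted p = 0.000301). TUBA4A (chromosome 2, 219249711 to 219278170) measured 15.0, 22.5, 21.6 and 18.6 CPM with the high dose, against 36.3, 28.1, 26.2 and 33.9 CPM in DMSO. Its 4 high-dose libraries lay below all 4 DMSO libraries, with a log2 fold change of -0.67 ± 0.15 (adjusted p = 0.000977). TUBG1, the gamma tubulin that nucleates microtubules, averaged 192 ± 13 CPM with the high dose and 234 ± 19 CPM in DMSO (SD, n = 4 each). Its log2 fold change was -0.29 (adjusted p = 0.0231), and this call was lost without high-dose replicate 4 (adjusted p = 0.0828), DMSO replicate 2 (0.0600) or DMSO replicate 4 (0.0834). Over the tubulins, 7 of 9 had no overlap between the high-dose and DMSO libraries, where 23.3% of all tested genes had none.

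TUBB2A and TUBB2B lie next to each other on chromosome 6 (3153669 to 3157526 and 3224261 to 3231730, both on the minus strand, 66734 bases apart) and went in opposite directions. TUBB2B, a beta tubulin of migrating and growing neurons, measured 271, 308, 289 and 367 CPM with the high dose, against 171, 187, 173 and 227 CPM in DMSO. Each high-dose library lay above all DMSO libraries, and the log2 fold change was 0.70 ± 0.14 SE (adjusted p = 0.000478). TUBB2A measured 46.9, 46.5, 40.4 and 53.7 CPM with the high dose, against 58.4, 51.1, 67.3 and 78.0 CPM in DMSO. High-dose replicate 4 lay above DMSO replicate 2, so the groups overlapped, with a log2 fold change of -0.45 ± 0.13 (adjusted p = 0.00917). Without DMSO replicate 4 the call of TUBB2A was lost (adjusted p = 0.0701). TUBB2B made up 5.42% ± 0.97 of all tubulin counts with the high dose and 2.27% ± 0.22 in DMSO (SD, n = 4 each).

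The promoters of this pair are shown because the genes went apart while their coding sequences are nearly the same. They are the RefSeq windows of GRCh38.p14 from 250 bases before to 50 bases after the start, on the minus strand, at chr6:3227604-3227903 for TUBB2B and chr6:3157495-3157794 for TUBB2A. Capitals mark the motifs found among 4 searched on both strands: CCAAT (here as its reverse complement), TATAAA, TGACGTCA and CACGTG.
TUBB2B: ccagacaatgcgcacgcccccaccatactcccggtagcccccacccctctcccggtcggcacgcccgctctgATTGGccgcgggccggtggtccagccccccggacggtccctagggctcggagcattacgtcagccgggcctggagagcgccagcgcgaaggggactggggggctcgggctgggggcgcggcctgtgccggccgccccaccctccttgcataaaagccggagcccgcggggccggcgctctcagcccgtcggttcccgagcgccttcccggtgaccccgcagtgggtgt
TUBB2A: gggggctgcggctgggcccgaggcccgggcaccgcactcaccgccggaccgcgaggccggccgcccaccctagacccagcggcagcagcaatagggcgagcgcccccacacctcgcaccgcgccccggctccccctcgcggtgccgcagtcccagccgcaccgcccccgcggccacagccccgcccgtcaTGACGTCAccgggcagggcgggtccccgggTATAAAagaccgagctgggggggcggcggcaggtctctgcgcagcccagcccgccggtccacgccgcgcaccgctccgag
Aligned over 310 columns, the promoters were 47.4% identical. The window of TUBB2B held a CCAAT match at -178 from the start, and that of TUBB2A held TATAAA at -30 and TGACGTCA, the sequence bound by CREB family factors, at -60. Of 35116 RefSeq promoters, 34.6% held CCAAT, 11.5% TATAAA, 1.85% TGACGTCA and 7.26% CACGTG. A match describes the letters of the window only, and none of the 4 motifs overlapped another in these windows. Only exact matches were marked, and the TUBB2B window also holds cataaa and ttacgtca, near matches to TATAAA and TGACGTCA. Among the tubulins that fell with the high dose, the windows of TUBA1A, TUBB4B and TUBG1 held CCAAT too. So did 1 window of TUBB and 1 of TUBB6, while those of TUBA1B, TUBA4A and TUBB2A did not.

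Summed over the 12 tubulin genes, the level averaged 5747 ± 661 CPM with the high dose, 7490 ± 703 CPM with the low dose and 8329 ± 620 CPM in DMSO (SD, n = 4 each). Across the libraries TUBA1B made up 37.3% to 46.6% of the sum and TUBB 26.8% to 38.0%, so it mostly repeats these genes. Fitted as 1 feature beside all genes, the sum had a log2 fold change of -0.54 ± 0.10 SE against DMSO (adjusted p = 0.000118) and of -0.38 ± 0.10 against the low dose (adjusted p = 0.00571). In the combination it averaged 7576 ± 1029 CPM and with prexasertib 7302 ± 504 CPM. Neither passed the test against DMSO, with log2 fold changes of -0.14 (adjusted p = 0.492) and -0.19 (adjusted p = 1.00).

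**Figure D2:**
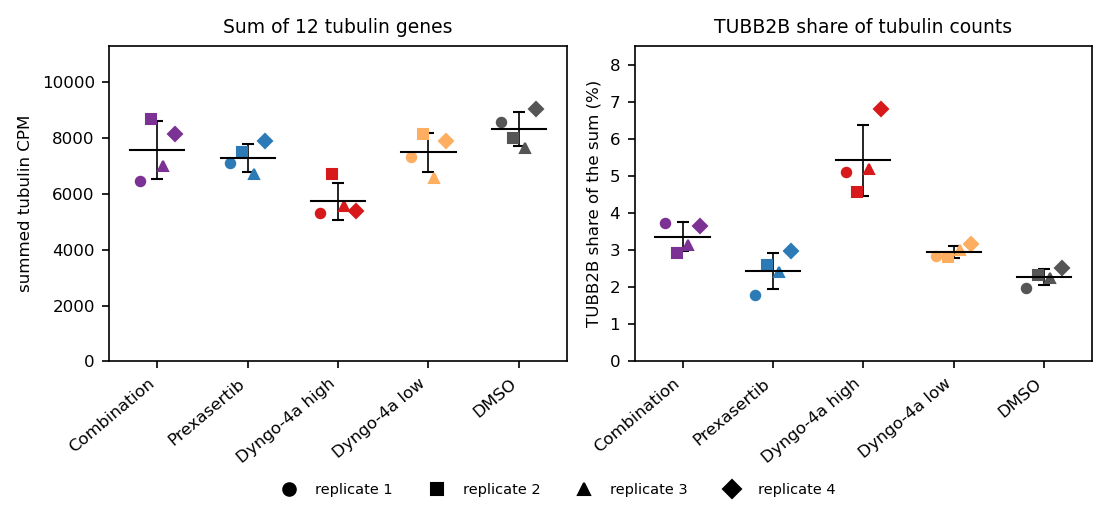
Left, summed TMM-scaled CPM of the 12 tubulin genes; right, the percentage of that sum taken by TUBB2B; both axes are linear from 0, with 1 point per library in the 5 groups, lines for the mean and bars for the SD (n = 4). The 4 high-dose libraries hold 5311 to 6725 CPM, against 7669 to 9061 CPM in DMSO, and their TUBB2B share is 4.58% to 6.82%, against 1.99% to 2.51% in DMSO.

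Among the 11 microtubule-associated genes, 2 rose and 2 fell with the high dose, where 12.5% of all tested genes were called higher and 12.7% lower. MAPT, which encodes tau, the axonal microtubule stabiliser (chromosome 17, 45894382 to 46028334), measured 71.8, 68.3, 56.6 and 102 CPM with the high dose, against 34.8, 36.4, 27.4 and 42.6 CPM in DMSO. All 4 high-dose libraries lay above all DMSO libraries, and the log2 fold change was 1.07 ± 0.20 SE (adjusted p = 0.000478). MAP1A, a microtubule-binding protein of mature neurons (chromosome 15, 43510958 to 43531620), measured 188, 186, 187 and 179 CPM with the high dose, against 313, 220, 262 and 235 CPM in DMSO. The high-dose values lay close together and below all DMSO values, with a log2 fold change of -0.48 ± 0.11 (adjusted p = 0.00104). MAP1B, its relative of growing axons, measured 2383, 2453, 2336 and 2896 CPM with the high dose, against 2302, 1862, 2218 and 2098 CPM in DMSO. High-dose replicate 4 was the highest and the groups did not overlap, with a log2 fold change of 0.25 ± 0.09 (adjusted p = 0.0344). That call was lost without high-dose replicate 4 (adjusted p = 0.184), DMSO replicate 2 (0.137) or DMSO replicate 4 (0.0580). MAPRE2, an end-binding protein, measured 96.2, 90.0, 80.5 and 93.8 CPM with the high dose, against 101, 127, 100 and 119 CPM in DMSO. The groups did not overlap (-0.31 ± 0.10, adjusted p = 0.0187), and the call was lost without high-dose replicate 3 (0.0761), DMSO replicate 2 (0.0865) or DMSO replicate 4 (0.0600).

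The other 7 microtubule-associated genes were not called with the high dose against DMSO. MAP6, which protects microtubules from cold, measured a log2 fold change of 0.37 (adjusted p = 0.0768), MAP4, the widely expressed stabiliser, 0.17 (0.134), MAP1S 0.27 (0.120) and MAP2, the dendritic marker of neurons, -0.21 (0.167). The end-binding genes MAPRE1 and MAPRE3 measured -0.17 and 0.39. MAP7, which recruits kinesin to microtubules, was near the detection limit with 3 to 18 counts per library.

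**Figure D3:**
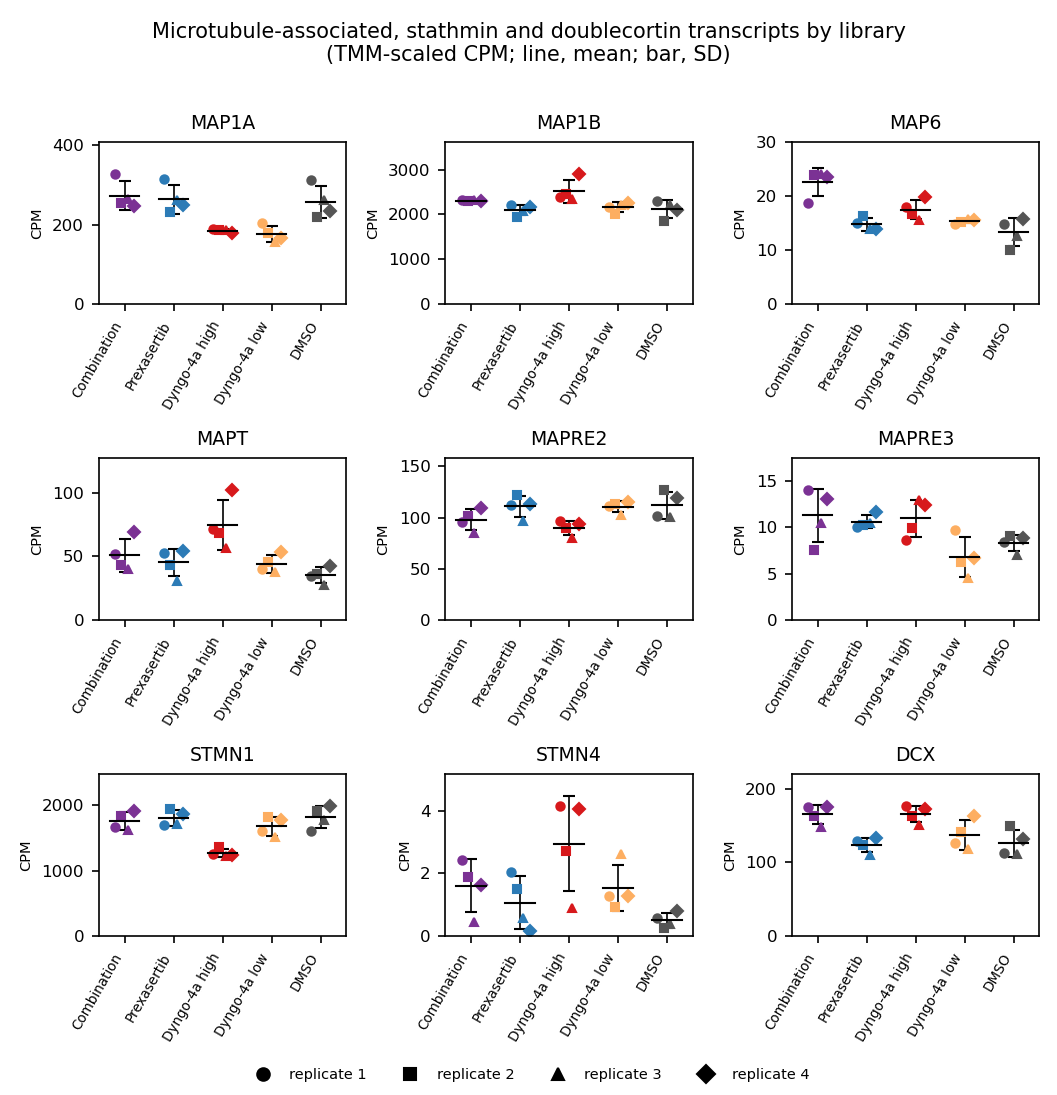
TMM-scaled CPM of 6 microtubule-associated genes, STMN1, STMN4 and DCX by library in the 5 groups, on linear axes from 0, with lines for the mean and bars for the SD (n = 4). MAPT has its highest mean with the high dose (56.6 to 102 CPM, against 27.4 to 42.6 CPM in DMSO), MAP6 has its highest mean in the combination (18.6 to 24.1 CPM, against 10.0 to 15.8 CPM in DMSO), and MAP1A lies low at both doses of Dyngo-4a.

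Of the 7 stathmins, doublecortins and GAP43, 2 rose and 1 fell with the high dose, beside 12.5% of all tested genes higher and 12.7% lower. STMN1, the stathmin of dividing cells that takes up tubulin dimers (chromosome 1, 25884181 to 25906991), measured 1255, 1360, 1222 and 1242 CPM with the high dose, against 1609, 1906, 1775 and 1984 CPM in DMSO. The groups lay apart, with a log2 fold change of -0.52 ± 0.09 SE (adjusted p = 3.56e-05). DCX, the doublecortin of migrating neuroblasts (chromosome X, 111293779 to 111412429), measured 176, 163, 151 and 173 CPM with the high dose, against 112, 149, 111 and 131 CPM in DMSO. High-dose replicate 3 lay just above DMSO replicate 2, so the groups met but did not overlap, and the log2 fold change was 0.40 ± 0.10 (adjusted p = 0.0034). STMN4, a neuronal stathmin, was barely detected, with 21, 15, 5 and 22 counts in the high-dose libraries, against 3, 1, 2 and 5 counts in DMSO. On the CPM scale that is 0.907 to 4.14 CPM with the high dose, against 0.251 to 0.800 CPM in DMSO. The groups did not overlap and the fitted log2 fold change was 1.87 ± 0.47 (adjusted p = 0.00298), a value that depends on the prior count at such levels. STMN3 and DCLK1, a doublecortin-like kinase, measured 0.02 and -0.09 and were not called.

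Of the 7 intermediate filament genes, 4 fell and 1 rose with the high dose, beside 12.7% of all tested genes lower and 12.5% higher. NEFH, the heavy neurofilament subunit of mature axons (chromosome 22, 29480230 to 29491390), measured 136, 109, 85.6 and 124 CPM with the high dose, against 250, 203, 200 and 214 CPM in DMSO. The groups did not overlap, and the log2 fold change was -0.93 ± 0.11 SE (adjusted p = 2.00e-08). NEFM, the medium subunit, measured 119, 138, 116 and 133 CPM with the high dose, against 190, 142, 154 and 158 CPM in DMSO. High-dose replicate 2 lay just below DMSO replicate 2, so the groups did not overlap, with a log2 fold change of -0.35 ± 0.09 (adjusted p = 0.0044). NES, nestin of neural precursors (chromosome 1, 156668763 to 156677397), measured 97.8, 92.2, 84.2 and 101 CPM with the high dose, against 127, 129, 123 and 118 CPM in DMSO. It fell by 0.40 ± 0.09 with no overlap (adjusted p = 0.00105). VIM, which encodes vimentin (chromosome 10, 17228259 to 17237593), measured 500, 546, 520 and 581 CPM with the high dose, against 335, 423, 367 and 377 CPM in DMSO. Vimentin was higher in every high-dose library than in any DMSO library, with a log2 fold change of 0.52 ± 0.09 (adjusted p = 7.07e-05).

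INA, alpha-internexin, measured 167, 184, 161 and 170 CPM with the high dose, against 197, 221, 171 and 231 CPM in DMSO. These groups overlapped and INA lay at the threshold, with a log2 fold change of -0.26 ± 0.10 SE (adjusted p = 0.0498). Its call was lost without high-dose replicate 1 (0.0976), 3 (0.124) or 4 (0.0829) and without DMSO replicate 1 (0.0583), 2 (0.133) or 4 (0.184). NEFL, the light neurofilament subunit, and PRPH, peripherin of peripheral neurons, measured 0.14 and -0.07 and were not called.

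**Figure D4:**
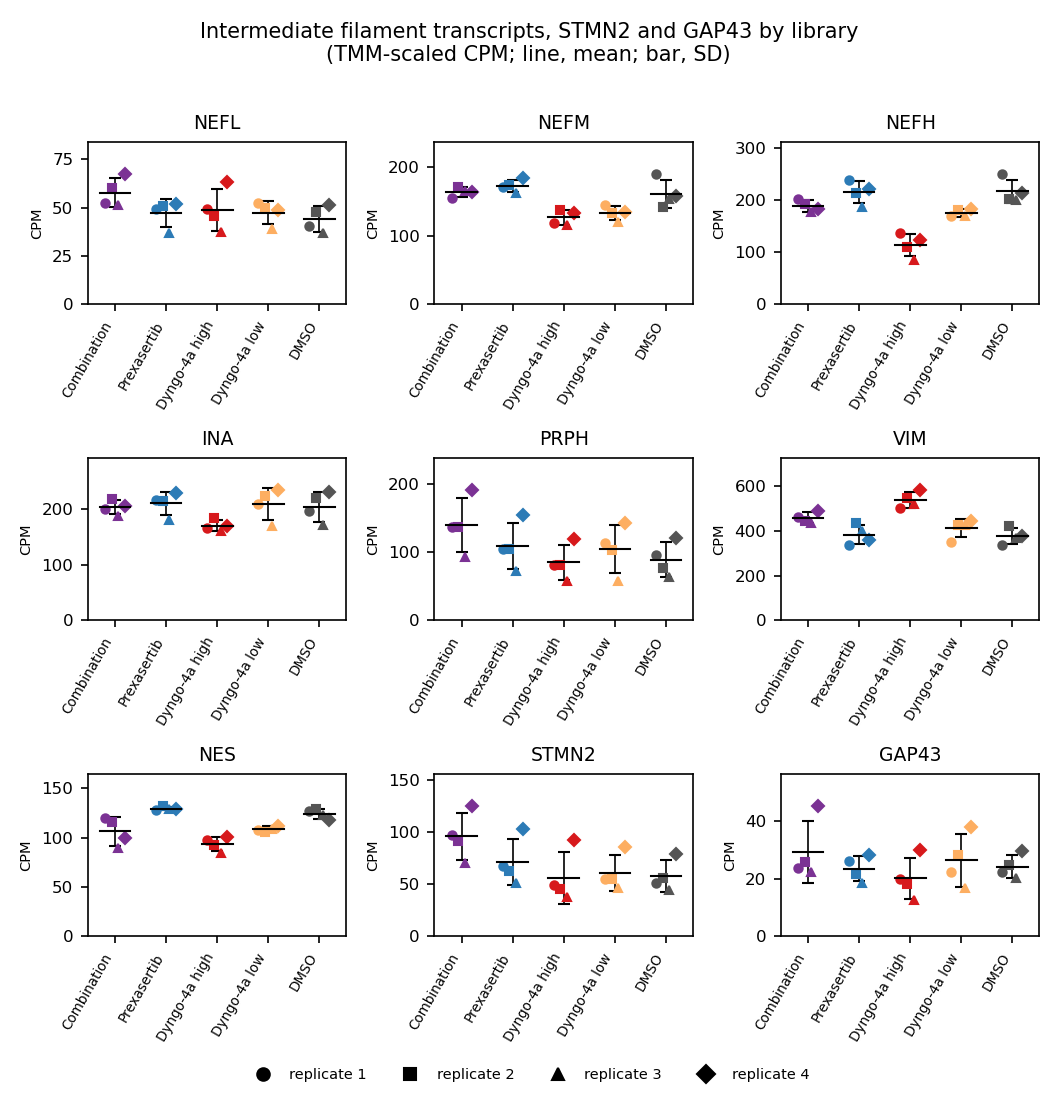
TMM-scaled CPM of the 7 intermediate filament genes, STMN2 and GAP43 by library in the 5 groups, on linear axes from 0, with lines for the mean and bars for the SD (n = 4); marker shapes give the replicate number. NEFH lies at 85.6 to 136 CPM with the high dose, against 200 to 250 CPM in DMSO, and in PRPH, STMN2 and GAP43 replicate 4 is the highest and replicate 3 the lowest library of every group.

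The same members were measured at the low dose of Dyngo-4a, where 1 of 34, MAP1A, was called and fell, against 0.262% of all tested genes in either direction, 0.182% higher and 0.0801% lower. Of the 34, 4 had no overlap between the low-dose and DMSO libraries, as 4.62% of all tested genes had: MAP1A, STMN4, NEFH and NES. MAP1A measured 204, 180, 157 and 167 CPM with the low dose, against 313, 220, 262 and 235 CPM in DMSO. The groups did not overlap, and the log2 fold change was -0.54 ± 0.11 SE (adjusted p = 0.0102). The call was lost without low-dose replicate 3 (adjusted p = 0.0858), low-dose replicate 4 (0.0539) or DMSO replicate 1 (0.107). With replicate number fitted as a block, 4 members fell at the low dose: MAP1A, TUBB (-0.27, adjusted p = 0.00591), NEFH (-0.30, 0.0128) and NEFM (-0.28, 0.0313). In that fit 1.89% of all tested genes were called, 0.881% higher and 1.01% lower. TUBB4B measured 242, 273, 251 and 261 CPM with the low dose, and its log2 fold change against DMSO was -0.20 (adjusted p = 0.551 without the block). The comparisons of both doses with DMSO share their control libraries.

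Between the doses, 15 of 34 members were called, 4 higher and 11 lower with the high dose, where 20.2% of all tested genes were called, 10.1% higher and 10.1% lower. The libraries of 13 members did not overlap, where 21.0% of all tested genes had no overlap. TUBB6 fell by 0.88 ± 0.13 SE on the log2 scale (59.0, 48.1, 50.6 and 34.7 CPM with the high dose, against 89.6, 104, 88.4 and 73.4 CPM with the low dose), with no overlap (adjusted p = 6.05e-06). TUBB4B fell by 0.75 ± 0.09 (adjusted p = 6.16e-08), also with no overlap. TUBA1A, TUBA1B, TUBA4A, TUBB2A, TUBG1, MAPRE2, STMN1, NEFH and INA were the other called members that were lower. MAPT (0.75 ± 0.20), MAPRE3 (0.66 ± 0.21), TUBB2B (0.48 ± 0.14) and VIM (0.38 ± 0.09) were higher with the high dose. MAP1A measured 0.06 between the doses (adjusted p = 0.738).

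MAPRE3, an end-binding protein enriched in brain, measured 8.68, 9.90, 12.9 and 12.4 CPM with the high dose, against 9.71, 6.31, 4.57 and 6.72 CPM with the low dose. Its groups overlapped at high-dose replicate 1, and its call (adjusted p = 0.0242) was lost without low-dose replicate 2 (0.0630), 3 (0.0948) or 4 (0.0513) or high-dose replicate 3 (0.0818) or 4 (0.0680). The call of TUBB2B was lost without high-dose replicate 4 (0.0590), and that of TUBG1 without low-dose replicate 2 (0.0794) or high-dose replicate 4 (0.0513). MAPRE2 lost its call without low-dose replicate 1 (0.0604), 2 (0.0891) or 4 (0.0787) or high-dose replicate 2 (0.0588) or 3 (0.111). INA lost its call without any 1 of low-dose replicates 1 (0.0553), 2 (0.121) and 4 (0.123) and high-dose replicates 1 (0.0760), 3 (0.0866) and 4 (0.0552). With replicate number fitted as a block, TUBB (-0.19, adjusted p = 0.0165), MAP1B (0.22, 0.00372), DCX (0.28, 0.00239), PRPH (-0.28, 0.00505), NES (-0.22, 0.0294) and GAP43 (-0.40, 0.0196) were also called, which made 21 of 34, where that fit called 29.0% of all tested genes, 14.1% higher and 14.9% lower.

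With prexasertib alone 0 of 34 members were called in edgeR's quasi-likelihood test, as were 0% of all tested genes. DESeq2 and limma-voom called 0 members too, and 3 members had an unadjusted p under 0.05. MAPRE3 was the 1 member with no overlap (10.0 to 11.6 CPM with prexasertib, against 7.05 to 9.03 CPM in DMSO), where 2.94% of all tested genes had none. Those with an unadjusted p under 0.05 were TUBA1B, TUBA4A and TUBB, with log2 fold changes of -0.25, -0.32 and -0.21 (adjusted p = 1.00 each). Over the members the values ran from -0.76 (MAP7, with 3 to 18 counts per library) to 0.65 (STMN4). TUBB4B averaged 303 ± 13 CPM with prexasertib and 296 ± 23 CPM in DMSO (SD, n = 4 each). The fit with replicate number as a block also called 0 members (lowest adjusted p = 0.207, PRPH). It called 0.168% of all tested genes, 0.109% higher and 0.0583% lower.

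In the combination 3 of 34 members were called against DMSO, and all 3 rose: TUBB4B, MAP6 and DCX. The share among all tested genes was 6.3% in either direction, 3.47% higher and 2.83% lower, and 12 members had an unadjusted p under 0.05. With replicate number fitted as a block more members were called. Among them were STMN2 (0.74, adjusted p = 5.35e-10) and TUBB2B (0.42, 5.23e-06) as higher and TUBB (-0.29, 0.000263) as lower. That fit called 14.4% of all tested genes, 7.09% higher and 7.31% lower. MAP6 (chromosome 11, 75586918 to 75669120) measured 18.6, 23.9, 24.1 and 23.6 CPM in the combination, against 14.8, 10.0, 12.7 and 15.8 CPM in DMSO. Combination replicate 1 was the lowest of its group but still above all DMSO libraries, and the log2 fold change was 0.73 ± 0.15 SE (adjusted p = 0.00157). DCX measured 175, 162, 147 and 175 CPM in the combination, against 112, 149, 111 and 131 CPM in DMSO. Combination replicate 3 lay below DMSO replicate 2, so the groups overlapped, and the log2 fold change was 0.39 ± 0.10 (adjusted p = 0.0140). TUBB4B measured 333, 403, 352 and 380 CPM in the combination, above all DMSO libraries, which held 307, 262, 298 and 315 CPM. Its log2 fold change was 0.31 ± 0.09 (adjusted p = 0.0198). The call of DCX was lost without combination replicate 1 (adjusted p = 0.0515), DMSO replicate 1 (0.0647) or DMSO replicate 3 (0.0674), and that of TUBB4B without combination replicate 2 (0.0760), combination replicate 4 (0.0506) or DMSO replicate 2 (0.0979).

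In 4 members, TUBB4B, MAP4, MAP6 and VIM, the combination and DMSO libraries did not overlap, against 10.9% of all tested genes. VIM measured 462, 444, 434 and 490 CPM in the combination, against 335, 423, 367 and 377 CPM in DMSO, but its log2 fold change of 0.29 missed the threshold (adjusted p = 0.0606). TUBB2B, at 241, 256, 221 and 297 CPM in the combination, against 171, 187, 173 and 227 CPM in DMSO, measured 0.42 (adjusted p = 0.0740). Its lowest combination library lay below DMSO replicate 4. The lowest values in the combination belonged to TUBA4A (-0.42, adjusted p = 0.0889) and TUBB (-0.29, 0.0804), neither of them called without the block.

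**Figure D5:**
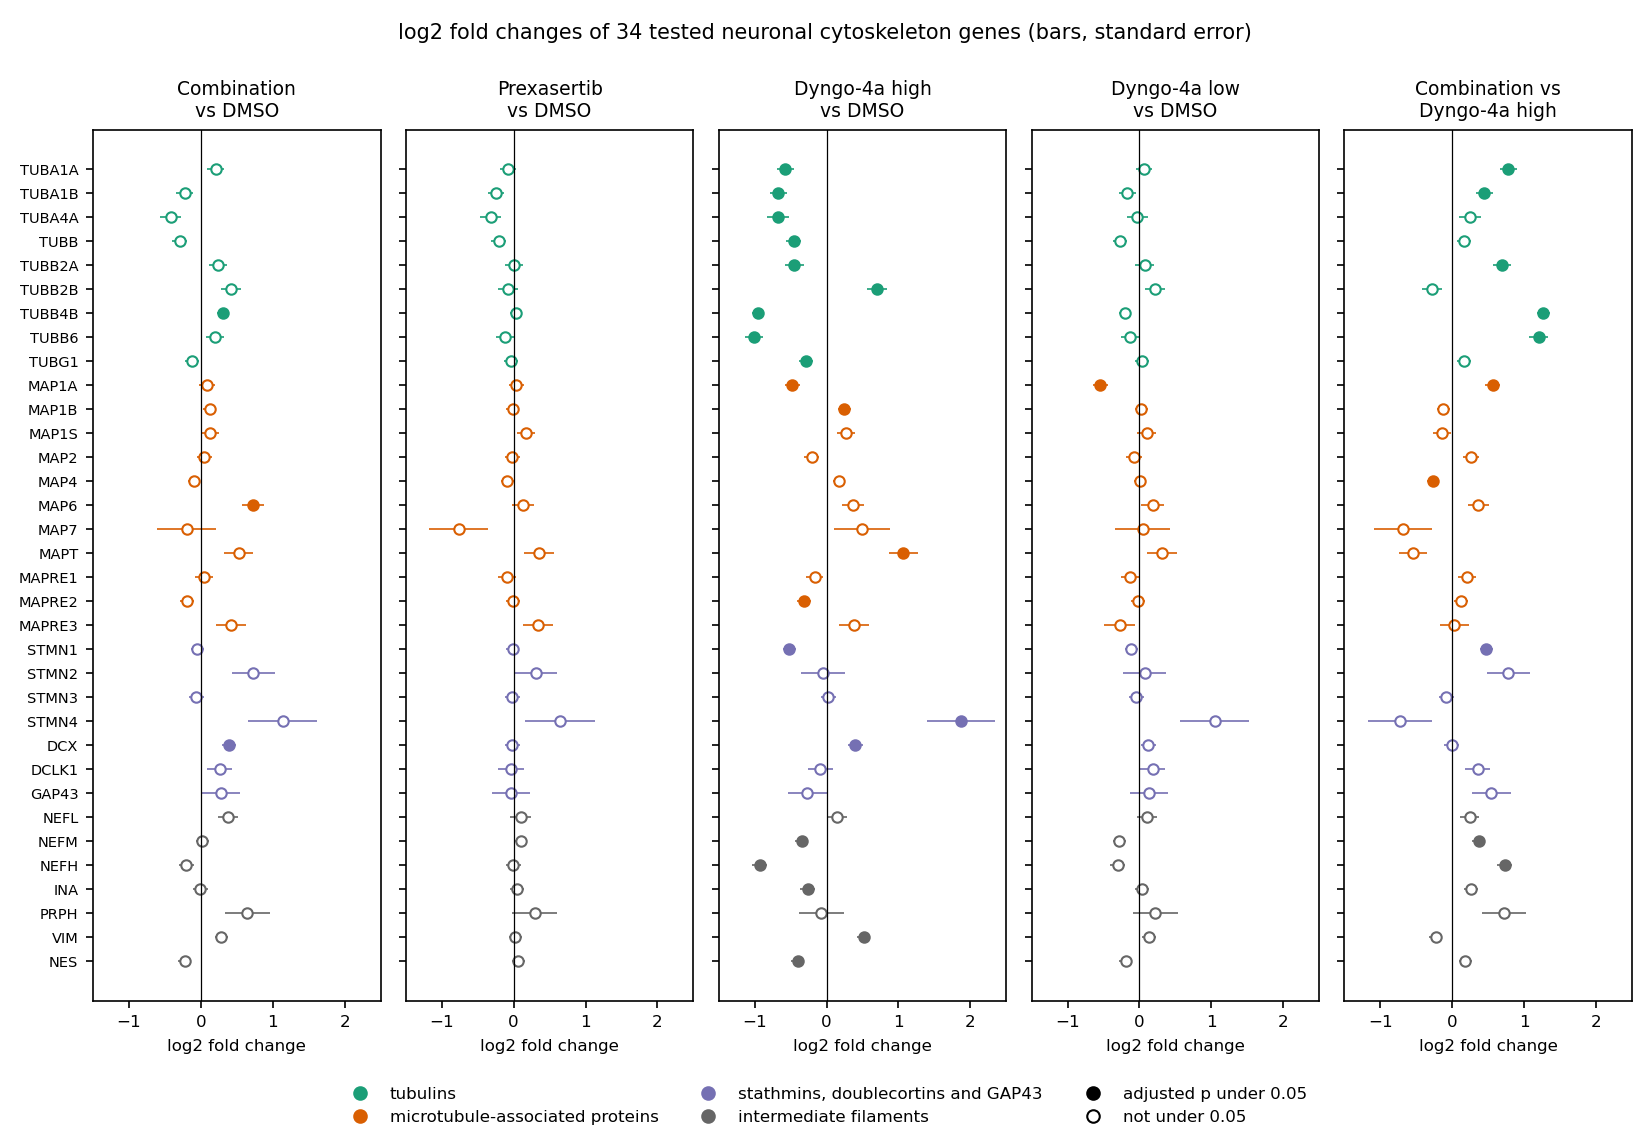
The log2 fold changes of the 34 tested members in 5 comparisons (combination, prexasertib, Dyngo-4a high and Dyngo-4a low, each against DMSO, and the combination against Dyngo-4a high), with bars for the standard error and filled points for adjusted p under 0.05. The tubulins lie below 0 with the high dose except TUBB2B (0.70), the prexasertib points are all open, and TUBB4B (1.27) and TUBB6 (1.20) lie far to the right where the combination is set against the high dose.

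Against the high dose, the combination held 9 members higher and 1 lower, 10 of 34, where 20.5% of all tested genes were called, 10.4% higher and 10.1% lower. In 12 members the libraries did not overlap, against 20.7% of all tested genes. This comparison was added after the comparisons with DMSO had been seen, and the labels leave out the doses used in the combination, so the dose of Dyngo-4a may differ between the groups. TUBB4B measured 333, 403, 352 and 380 CPM in the combination, against 148, 166, 157 and 138 CPM with the high dose. All 4 combination libraries lay far above all 4 high-dose libraries, and the log2 fold change was 1.27 ± 0.09 SE (adjusted p = 3.84e-13). TUBB6 measured 124, 118, 111 and 90.5 CPM in the combination, against 59.0, 48.1, 50.6 and 34.7 CPM with the high dose. It too had no overlap, with a log2 fold change of 1.20 ± 0.13 (adjusted p = 2.76e-08).

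TUBA1A (0.78 ± 0.11 SE), TUBB2A (0.69 ± 0.13) and TUBA1B (0.45 ± 0.12) were the other tubulins that were higher in the combination than with the high dose. So were NEFH (0.73 ± 0.11), MAP1A (0.56 ± 0.11), STMN1 (0.47 ± 0.09) and NEFM (0.37 ± 0.09). NEFH measured 203, 193, 177 and 183 CPM in the combination, against 136, 109, 85.6 and 124 CPM with the high dose. No combination library of NEFH reached down to a high-dose library. MAP4 was the 1 member that was lower, averaging 113 ± 3.2 CPM in the combination and 136 ± 9.0 CPM with the high dose (SD, n = 4 each; log2 fold change -0.26, adjusted p = 0.0229). That call was lost without high-dose replicate 1 (0.0541) or 2 (0.0705) or combination replicate 2 (0.0569) or 3 (0.0550). DCX measured -0.01 (adjusted p = 0.968). With replicate number fitted as a block, 20 members were called, 16 higher and 4 lower, and the 10 more included STMN2 (0.81, adjusted p = 1.06e-11), PRPH (0.72, 1.45e-11), MAPT (-0.54, 5.76e-06) and TUBB2B (-0.28, 0.00102). The blocked fit called 29.1% of all tested genes, 14.8% higher and 14.3% lower.

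Set against prexasertib alone, the combination held 3 members higher and 0 lower, TUBB2B, MAP6 and DCX, where 3.44% of all tested genes were called, 2.4% higher and 1.04% lower. In 6 members the libraries did not overlap, against 9.86% of all tested genes. DCX measured 175, 162, 147 and 175 CPM in the combination, against 129, 124, 110 and 132 CPM with prexasertib. The groups did not overlap (0.41 ± 0.10 SE, adjusted p = 0.0141). MAP6 was higher by 0.60 ± 0.15 (18.6 to 24.1 CPM in the combination, against 13.9 to 16.4 CPM with prexasertib, adjusted p = 0.0148). TUBB2B measured 241, 256, 221 and 297 CPM in the combination, against 128, 195, 162 and 234 CPM with prexasertib. Those groups overlapped at prexasertib replicate 4, and the log2 fold change was 0.50 ± 0.14 (adjusted p = 0.0461). The call of DCX was lost without prexasertib replicate 3 (0.0707) or combination replicate 1 (0.0547), and that of MAP6 without prexasertib replicate 4 (0.0501) or combination replicate 3 (0.0515). That of TUBB2B was lost without prexasertib replicate 1 (0.125), 2 (0.0683) or 3 (0.133) or combination replicate 1 (0.0789), 2 (0.0849) or 4 (0.135). With replicate number fitted as a block 10 members were called, 9 higher and 1 lower: TUBA1A (0.28, adjusted p = 0.00389), TUBB4B (0.28, 0.00313), STMN2 (0.44, 0.000178), PRPH (0.36, 0.000871), VIM (0.27, 0.00372) and NEFL (0.29, 0.0449) joined the 3 as higher, and NES (-0.29, 0.0088) was lower. Of all tested genes 10.0% were called with the block, 5.06% higher and 4.95% lower.

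Set against the low dose of Dyngo-4a, the combination held TUBB4B, MAP1A and MAP6 higher and 0 members lower, where 3.85% of all tested genes were called, 2.7% higher and 1.14% lower. In 5 members the libraries did not overlap, against 9.09% of all tested genes. TUBB4B was higher by 0.51 ± 0.09 SE on the log2 scale (333 to 403 CPM in the combination, against 242 to 273 CPM with the low dose, adjusted p = 0.000102). MAP1A measured 327, 254, 266 and 247 CPM in the combination, against 204, 180, 157 and 167 CPM with the low dose. Its groups lay apart (0.63 ± 0.11, adjusted p = 0.000151). MAP6 was higher by 0.54 ± 0.15 (adjusted p = 0.0283), a call that was lost without any 1 of 4 low-dose libraries (0.0572 to 0.0791) or combination replicate 2 (0.0808), 3 (0.0845) or 4 (0.0696). With replicate number fitted as a block 8 members were called, all higher, the further 5 being STMN2 (0.67, adjusted p = 1.89e-08), PRPH (0.44, 2.67e-05), NEFM (0.30, 0.00386), DCX (0.27, 0.0114) and MAPRE3 (0.68, 0.0239). The share of all tested genes called with the block was 8.37%, with 4.44% higher and 3.93% lower.

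The interaction, which asks whether the combination differed from the sum of the prexasertib and low-dose effects on the log2 scale, called 0 of 34 members, against 0.284% of all tested genes, 0.27% higher and 0.0146% lower. It can be read that way only if the combination held prexasertib at 2 nM and Dyngo-4a at 1 µM, which the labels do not state. DESeq2 called 1 member and limma-voom 0, and 3 members had an unadjusted p under 0.05 in edgeR's test. MAP1A had an interaction of 0.59 ± 0.15 SE (adjusted p = 0.0909) and TUBB4B of 0.48 ± 0.12 (adjusted p = 0.0787). The low-dose log2 fold changes against DMSO were -0.54 for MAP1A and -0.20 for TUBB4B, and those of the combination against prexasertib were 0.05 and 0.28. MAP1A passed the threshold without prexasertib replicate 1 (adjusted p = 0.0273) or combination replicate 4 (0.0480), and TUBB4B without DMSO replicate 2 (0.0486).

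In 4 members, MAPT, STMN2, PRPH and GAP43, replicate 4 was the highest and replicate 3 the lowest library in 5 of 5 groups, which held for 14 of 13729 tested genes (0.102%). These 4 were picked out after their values were seen. STMN2, the stathmin of growing neurites, measured 97.4, 91.7, 70.4 and 125 CPM in replicates 1 to 4 of the combination, against 51.2, 55.7, 44.3 and 79.6 CPM in DMSO. Within each replicate number the combination was higher, while between numbers the groups overlapped. Without the block the log2 fold change of STMN2 was 0.73 ± 0.30 SE (adjusted p = 0.180). PRPH measured 137, 137, 93.3 and 191 CPM in the combination, against 95.3, 76.2, 63.3 and 121 CPM in DMSO, and again the combination was higher at each number (0.64 ± 0.31, adjusted p = 0.271). GAP43, the growth-associated protein of growth cones, measured 23.7, 25.8, 22.5 and 45.3 CPM in the combination, against 22.3, 24.8, 20.2 and 29.6 CPM in DMSO (0.28 ± 0.27, adjusted p = 0.623). With the high dose STMN2 averaged 56.1 ± 25 CPM, PRPH 85.0 ± 25 CPM and GAP43 20.1 ± 7.2 CPM (SD, n = 4 each).

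The members that did not enter the test were near or at 0 counts. TUBB4A, a beta tubulin of brain, held 0 counts in every library. TUBA1C held 0 to 3 counts. Its 4 annotated ends shared 0% to 28.7% of their windows with other genes, TUBA1A and TUBA1B among them. Some reads of TUBA1C may therefore have been dropped or assigned elsewhere. TUBB3, the beta tubulin used as a neuronal marker (chromosome 16, 89921392 to 89938761), held 0 to 3 counts per library. Its annotated end shares exons on the same strand with the gene AC092143.1, which held 0 counts in every library. Reads of that end can match both genes, so the level of TUBB3 cannot be read from these counts.

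Genes that act on the same structures were read in 8 further lists. Over the lists together, 25 of 78 tested genes (32.1%) were called with the high dose against DMSO, where 25.2% of all tested genes were, 12.5% higher and 12.7% lower. In the combination 7 of 78 (8.97%) were called against DMSO, beside 6.3% of all tested genes, and 19 of 78 (24.4%) against the high dose, beside 20.5%. The counts per list below are to be read against these shares. With the high dose 7 of 12 growth cone and actin partners fell and 0 rose (median log2 fold change -0.33), among them FSCN1, the actin-bundling fascin (-0.80), DPYSL2, which binds tubulin dimers (-0.46), CFL1, the actin-severing cofilin (-0.44), and DBN1, drebrin (-0.41). In the combination 2 of the 12, FSCN1 (-0.45) and ENAH (-0.30), fell against DMSO, and 6 of 12 were higher and 1 lower than with the high dose. Of 8 tested genes of the other tubulins and the gamma-tubulin ring complex, 3 rose with the high dose, TUBE1 (1.10), TUBGCP3 (0.91) and TUBGCP2 (0.32), and TUBGCP5 fell (-0.65). Of 6 severing genes FIGN (0.88) and FIGNL1 (0.41) rose. Of 6 folding cofactors TBCB, which handles alpha tubulin, fell (-0.53).

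Of 13 tested motor genes KIF1A (0.30), KIF3A (0.28) and KLC2 (0.46) rose with the high dose, and in the combination KLC2 (0.60) and KIF5A (0.46) rose against DMSO. Of 12 kinases of microtubule-associated proteins MARK4 (0.52), MAPK10 (0.39) and MARK3 (0.26) rose and CDK5 (-0.45) fell with the high dose. Of 14 genes of tubulin tail modification SIRT2, a tubulin deacetylase, rose with the high dose (0.52), and HDAC6, another one, in the combination (0.46). Of 7 lamin and filament linker genes LMNA (0.41) rose and LMNB1 (-0.80) and SYNM (-0.48) fell with the high dose. In the combination LMNA, which encodes the A-type nuclear lamins, rose by 1.13 ± 0.13 SE (adjusted p = 5.74e-08) and LMNB1 fell by 0.46 against DMSO. LMNA was also the 1 gene of the 8 lists called in the interaction (0.93 ± 0.19, adjusted p = 0.00929), with the same limit on the doses. With prexasertib edgeR's test called 0 of the 78 tested genes of the 8 lists against DMSO (2 had an unadjusted p under 0.05), and with the low dose it also called 0 (8 had one); no other tool was run on these lists.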

How the data were processed

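The authors deposited counts per gene, raw and not normalised, for 20 QuantSeq 3′ libraries with molecular barcodes. The submitters' processing notes name FastQC 0.11.7, STAR 2.7.2b, edgeR 3.36.0, limma 3.50.3 and GRCh38. Not given in the sources used here: annotation release, counter, strand setting and barcode collapse. Every one of the 20 columns entered the fit. Coordinates came from GENCODE 29, which held 58515 of 58787 identifiers, and 58434 had a symbol.

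Genes were filtered with filterByExpr of edgeR 4.0.16 (minimum count 10, minimum total 15), leaving 13729 genes with 99.6% to 99.8% of the counts. One mean per group was fitted to all libraries in R 4.3.3, with TMM factors of 0.968 to 1.03 and the robust quasi-likelihood F-test (15 residual degrees of freedom, prior count 2). Two-sided p-values of each of the 9 comparisons were adjusted over the 13729 genes after Benjamini and Hochberg, and a gene was called under 0.05. CPM values are TMM-scaled. The steps were tested on simulated data with known changes.

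The members and lists were chosen with earlier results of these data known. Members called in any comparison that ranked among the 5 smallest p-values of their family against DMSO were to be given by library, other called members by group means; up to 4 called genes with the smallest p were named per list. One marker gene, and the sum of its list, is not reported here. STMN2, PRPH, GAP43 and some further per-library values were chosen after values were seen.

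The labels do not say what a replicate number shares, so pairing was checked by correlating deviations from group means between same-number libraries. Every pair passed 0.1 for prexasertib (0.157 to 0.213) and the low dose against DMSO (0.144 to 0.237), the high against the low dose (0.110 to 0.298) and the combination against prexasertib (0.115 to 0.230), the low dose (0.144 to 0.294) and the high dose (0.172 to 0.319). It did not for the high dose (lowest 0.0271) or the combination (lowest 0.0274) against DMSO, or the interaction. For the high dose and the combination against DMSO, replicate 2 alone failed. Blocked values stand beside results where every pair passed, and some also beside the combination against DMSO. Alternatives were other scalings and filters, DESeq2 1.42.0, limma-voom with limma 3.58.1, the compared groups alone, replicate terms and subsets, and leaving out each library.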

Additional observations from a re-analysis of the deposited data

Results flagged for a closer look

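In 170 groups of 4 libraries (34 members in 5 groups), 4 held a library that stood apart from the other 3 by more of the group's range than Dixon's critical value for 4 samples allows; chance alone flags about 1 in 20 groups. Combination replicate 4 held GAP43 at 45.3 CPM, against 22.5 to 25.8 CPM in the other combination libraries. Combination replicate 1 held MAP6 at 18.6 CPM, below the other 3 at 23.6 to 24.1 CPM. Prexasertib replicate 2 held NES at 132 CPM, where the other 3 lay between 128.5 and 128.6 CPM, so the gap is large only beside a very narrow spread. DMSO replicate 4 held MAP1S at 37.3 CPM, against 30.02 to 30.6 CPM in the other DMSO libraries. Leaving out the library that stood apart changed the call of its own gene in none of the 4 cases, in the comparison of its group with DMSO (for MAP1S, of each group with DMSO). For the combination against the high dose, edgeR's test called MAP6 without combination replicate 1 (adjusted p = 0.0439), and not with it.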

How the results depend on the processing

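No log2 fold change of a called member turned round under any alternative, and 32 of 56 calls held under all of them. For the high dose against DMSO 13 of 21 calls held, and between the doses 9 of 15. For the combination 8 of 10 held against the high dose and 2 of 3 against the low dose. Against DMSO and against prexasertib, 0 of 3 calls of the combination held in each. The 1 call of the low dose against DMSO did not hold either. The counts of called members in the comparison of the high dose with DMSO (21) and of the doses (15) stayed within 1.5 times throughout, with 17 to 21 and 11 to 14 when 1 library was left out, and that of prexasertib stayed at 0. In edgeR's test on replicates 2 and 4 alone, the high-dose calls of NEFM (adjusted p = 0.382) and DCX (0.167) against DMSO were lost. That of STMN4 was lost in replicates 1 and 3 alone (0.0635). MAP6 in the combination against DMSO lost its call in replicates 1 and 3 alone (0.0947) and in 2 and 4 alone (0.0694). For the combination against DMSO (3), library sizes alone, no low-count filter and DESeq2 each gave 5, a term for replicates 1 and 3 against 2 and 4 gave 9, replicates 1 and 3 alone 6, replicates 2 and 4 alone 0, and single omissions 2 to 4. For the low dose (1), replicates 2 and 4 alone gave 0 and single omissions 0 to 1. The combination against prexasertib (3) gave 5 with DESeq2, 7 with the term, 0 in replicates 2 and 4 alone and 1 to 3 with single omissions. Against the low dose (3) it gave 5 with DESeq2, 6 with the term, 5 in replicates 1 and 3 alone and 2 to 3 with single omissions, and against the high dose (10) 18 with the term and 9 to 13 with single omissions. The interaction (0) gave 1 with no filter (MAP1A), 1 with DESeq2 (TUBB4B), 2 with the term, and 0 to 1 with single omissions. The cause of these moves was not tested. The subsets and single omissions also hold fewer libraries than the main fit.

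With the replicate number as a block, the counts were 4 for the low dose, 10, 8 and 20 for the combination against prexasertib, the low dose and the high dose, 13 for the combination against DMSO (10 higher and 3 lower; 14.4% of all tested genes) and 2 for the interaction (1.22%). These 2 were MAP1A (0.58, adjusted p = 4.68e-05) and TUBB4B (0.48, 0.00103), which also passed with the term for replicates 1 and 3 against 2 and 4 (0.00369 and 0.00991). For the combination against DMSO the pairing rule failed on replicate 2 alone (correlation 0.0274). Replicates 1, 3 and 4 gave 0.152, 0.199 and 0.258. There the blocked fit added STMN2 (0.74, adjusted p = 5.35e-10), PRPH (0.64, 1.22e-09), TUBB2B (0.42, 5.23e-06), MAPT (0.52, 0.000115), VIM (0.29, 0.000887), NEFL (0.38, 0.00385) and TUBA1A (0.20, 0.0408) as higher. TUBB (-0.29, 0.000263), TUBA4A (-0.42, 0.0262) and NES (-0.22, 0.0400) were added as lower. Against DMSO with the high dose it added MAP2 (-0.21, 0.0301). For both, 3 of 4 libraries correlated best with their own number. The genes of the 8 further lists were not recomputed under the alternatives. With 4 libraries a group and 3 to 18 counts, MAP7 and genes at that level limit what can be seen.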
